A study of Mus musculus with 2 samples.

Results

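The carbonic anhydrases described here are 7 genes, Car1, Car2, Car3, Car4, Car5a, Car8 and Car14, taken as every probe set that the array annotation assigns to one of these symbols alone. They comprise 13 of the 45101 probe sets on the array. The genes were chosen by their log2 differences between the diets, already known from these arrays, so those differences are a description and carry no test. The livers came from male wild-type mice of the inbred strain C57BL/6J, housed singly and 8 weeks old when the diets began. The calorie-restricted (CR) group received 20% less food in the first week and 40% less in the other 11 weeks of a 12-week regimen. The ad libitum (AL) group ate freely for the same 12 weeks, and both groups are labelled as 5 months old. RNA of 3 mice per diet was pooled in equal amounts and each pool was hybridised to 1 Affymetrix array.

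With 1 pool and 1 array per diet there is no replicate, no error between mice and no p-value, and every difference compares these 2 pools. The number of arrays limits the precision. In whole liver, fewer cells of a type and less RNA per cell cannot be told apart. Differences are on the log2 scale, CR minus AL. A probe set counted as measured where at least 1 of the pools had an intensity of 7.38 or more, the median of all values on both arrays, and 23975 probe sets other than controls did so. At least 2-fold higher in CR were 2.09% of these, and 2.74% were lower by as much.

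Carbonic anhydrases are mostly zinc enzymes that interconvert carbon dioxide and water with bicarbonate and a proton. They serve acid-base balance, ion transport and, in liver, the supply of bicarbonate to carboxylating enzymes of the urea cycle, gluconeogenesis and fatty acid synthesis. Car1, Car2 and Car3 are cytosolic, Car5a is mitochondrial, Car4 and Car14 sit on the cell membrane with the active site outside, and Car8 is a related protein without the enzymatic activity. Car3 has low carbon dioxide hydration activity and is known as an abundant cytosolic protein of liver, adipose tissue and slow skeletal muscle. In rat, liver carbonic anhydrase III is far more abundant in males and depends on the pattern of growth hormone secretion.

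In these pools Car3 was lower in CR on its strongest signals, Car14 was about 2-fold higher, and the other 5 genes differed by less than 2-fold. Among the 13 probe sets, 11 were measured, and each of the 7 genes had at least 1 of them. At least 2-fold lower in CR were 2 probe sets, both of Car3, against a background of 2.74% of all measured probe sets. At least 2-fold higher was 1, that of Car14, against a background of 2.09%. These counts were known when the genes were chosen, and nothing is read from them. The other 8 measured probe sets lay between -0.25 and 0.58. The median over the 7 genes, each by its brightest probe set, was 0.17, beside -0.02 over all 12644 measured genes. These values are relative to the typical gene. After a shift by the cre hybridisation spikes the median of all measured genes was -0.40 and that of the 7 genes -0.21, and after a shift by all hybridisation spikes they were -1.04 and -0.85.

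**Figure D1:**
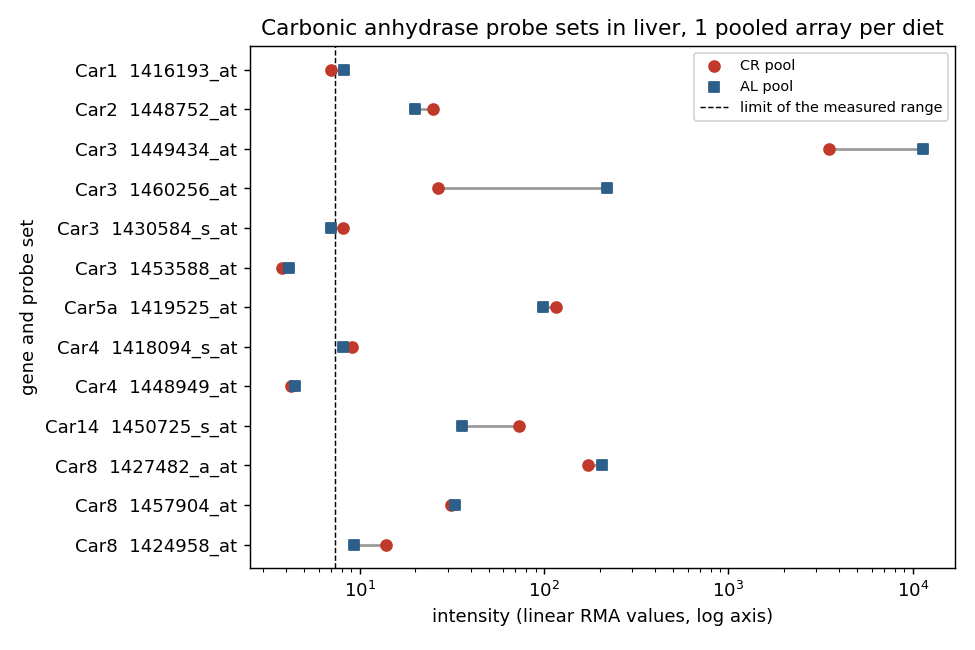
Intensity of each of the 13 probe sets in the CR pool (red circles) and the AL pool (blue squares), on a log axis, with the limit of the measured range as a dashed line. The brightest Car3 probe set stood at 3505 in CR and 11409 in AL, and 1 Car3 and 1 Car4 probe set lay below the limit in both pools.

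Car3 had 4 probe sets, which did not give one value. The brightest, 1449434_at, had an intensity of 3505 in the CR pool and 11409 in the AL pool, a log2 difference of -1.70, or 3.26-fold lower in CR. The second, 1460256_at, had 26.7 in CR and 219 in AL, a difference of -3.04, or 8.23-fold lower. Both are annotated to the same RefSeq transcript, and both were lower in CR under each scaling tried. The third, 1430584_s_at, had 8.09 in CR and 7.003 in AL, a difference of 0.21. Its AL value lay below the measured range, and its CR value stood only 1.10-fold above the limit. The difference turned to -0.17 after a shift by the cre spikes and to -0.81 after a shift by all hybridisation spikes, so its direction is not settled. The fourth, 1453588_at, lay below the range on both arrays, with 3.79 in CR and 4.13 in AL. The third and the fourth share another GenBank record and are both at or near the limit of measurement.

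The spread between these probe sets was wide. Over the 3 measured Car3 probe sets the differences ran over 3.25 log2 units, with an SD of 1.63. This is a spread between probe sets on the same 2 pools and not one between mice, and its source was not tested. Among 1800 genes with 3 or more measured probe sets, 1, Car3 itself, had a range that wide. The Car3 spread was picked out for description with earlier results of these data known, so its rank carries no test. The median range was 0.70 and the 95th percentile 1.68, and the next widest ranges were those of the endothelial lipase gene Lipg at 3.16 and the kinase gene Camk1d at 3.00. The width of the Car3 range rests on the dim 1430584_s_at. With an intensity limit at the 75th percentile, which leaves the 2 bright probe sets, the range was 1.34, and the same value followed without the probe set types (_s_at and the like) whose probes may match more than 1 transcript. With 16 added to every intensity before the log, the range was 2.53.

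**Figure D2:**
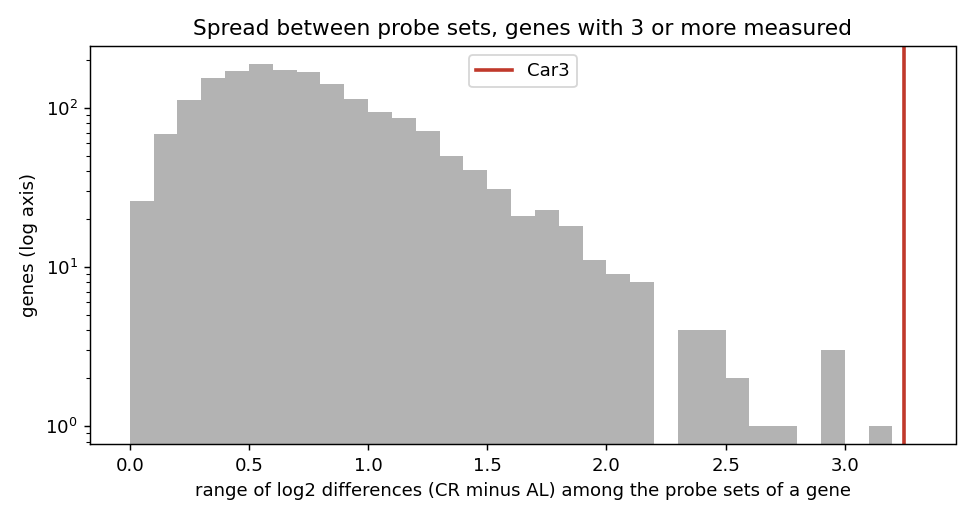
Range of the log2 differences (CR minus AL) among the measured probe sets of a gene, for 1800 genes with 3 or more, with the number of genes on a log axis. Car3, the red line at 3.25, lies to the right of the other genes, whose widest range was 3.16.

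The 2 bright Car3 probe sets also differed in size. Their gap was 1.34 log2 units, beside a median gap of 0.35 between the 2 brightest probe sets of a gene over 4924 genes. Of these genes 139 (2.82%), Car3 included, had a gap as wide. The signals of the 2 bright Car3 probe sets were far apart, 131-fold in CR and 52.0-fold in AL. Among 274 genes whose 2 brightest probe sets were at least 16-fold apart in mean intensity, the median gap was 0.45. Of these genes 12, Car3 included, had a gap as wide as that of Car3. The larger fall was on the dimmer Car3 probe set. In 37 genes, Car3 among them, both of the 2 brightest probe sets were at least 2-fold lower in CR. Of these genes 23 (62.2%), Car3 included, had the larger fall on the dimmer one. The median gap of the 37 was 0.35, and 5 of them, Car3 included, had a gap as wide as that of Car3. The AL signal of 11409 can be set beside the highest of any probe set on that array, 18092, and the part of signal strength in the Car3 gap was not tested. Control probe sets for the 3' end, the middle and the 5' end of the beta-actin and Gapdh transcripts were lower in CR in 6 of 6 cases. For beta-actin the differences were -0.73 at the 3' end, -1.61 in the middle and -0.83 at the 5' end, and for Gapdh -0.67, -1.11 and -0.85. Signal at the 3' end over that in the middle was 20.4 in CR and 11.1 in AL for beta-actin, and 6.04 in CR and 4.46 in AL for Gapdh. Over the 5' end it was 89.7 in CR and 83.5 in AL for beta-actin, and 53.2 in CR and 46.9 in AL for Gapdh. The part of this pattern in the Car3 values was not tested, and where along the transcript each Car3 probe set lies was not known here.

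Both bright Car3 probe sets lay outside the central 95% of probe sets of like signal. The brightest Car3 probe set was number 49 in mean intensity among the 23975 measured. Among 172 probe sets within 1 log2 unit of its mean intensity, the central 95% of differences ran from -1.09 to 0.52, and 3.49% were at least 2-fold lower. Of the 113 probe sets with a mean intensity of at least 4096, 3 were at least 2-fold lower, this one among them, and 0 were at least 2-fold higher. Of those 3, 1 that is unnamed here had a lower difference than Car3, and the other was the glutathione transferase gene Gstp1 at -1.04. Probe set 1460256_at had the 25th lowest difference of all 23975. Around it, 4699 probe sets of like signal had a central 95% from -1.23 to 1.12. These ranges describe 2 pools and are no measure of variation between mice. The Car3 differences were known when the genes were chosen, so their places in these ranges and ranks carry no test.

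**Figure D3:**
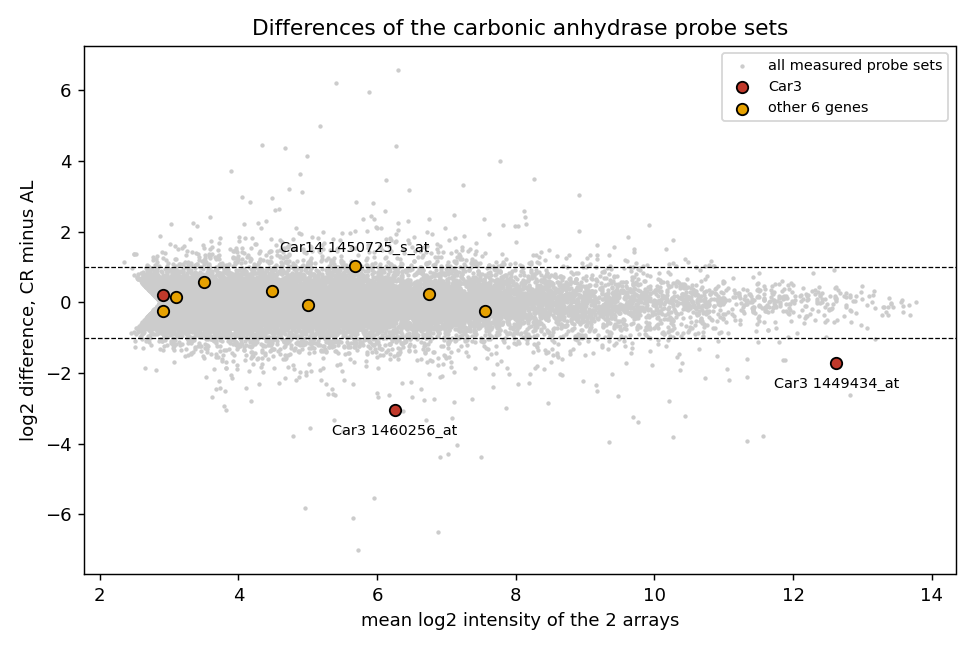
Log2 difference, CR minus AL, against the mean log2 intensity of the 2 arrays, with grey points for the 23975 measured probe sets and dashed lines at a 2-fold difference. The bright Car3 probe sets (red) lie at -1.70 and -3.04, the dim Car3 probe set stands at 0.21 (-0.17 after a shift by the cre spikes), and Car14 lies at 1.02 (0.65 after a shift by the cre spikes).

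By Euclidean distance between the pairs of log2 intensities of the brightest probe sets, a likeness over 2 arrays only, the 5 nearest genes encode plasma or lipid-carrying proteins. The nearest was Apoe, an apolipoprotein of remnant particles, with 4037 in CR and 7959 in AL, a difference of -0.98 at a distance of 0.56. The sterol carrier gene Scp2, the haem-binding hemopexin gene Hpx, the haptoglobin gene Hp and the apolipoprotein gene Apoc1 followed at distances between 0.81 and 0.87. Their differences ran from -0.57 to -0.49, closer to 0 than that of Car3.

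The other cytosolic members had weak signals. Car1, the red cell and colon isozyme, had 6.96 in CR and 8.22 in AL. The CR value lay below the measured range, and the AL value stood only 1.11-fold above the limit. The difference was -0.24, against a central 95% of -0.80 to 0.74 for probe sets of like signal. Car2, the fast and widely expressed cytosolic isozyme, had 24.9 in CR and 20.0 in AL, a difference of 0.31 that turned to -0.06 after a shift by the cre spikes. Both lie well inside the range of probe sets of like signal. In the mouse gene table Car13, Car1, Car3 and Car2 stand next to each other in this order among coding genes on chromosome 3. Within this cluster, Car3 alone had probe sets at least 2-fold lower in the values as deposited. The 3 Car13 probe sets were all below the limit in both pools. Car1, at 8.22 in AL against a limit of 7.38, had little room to show a fall. After a shift by all hybridisation spikes Car1 stood at -1.26.

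Car5a, the mitochondrial isozyme that feeds bicarbonate to pyruvate carboxylase and carbamoyl phosphate synthetase, differed little. It had 116 in CR and 99.2 in AL on its single probe set, a difference of 0.22 that turned to -0.15 after a shift by the cre spikes. Its partner enzymes were likewise close between diets in the values as deposited. Pcx, pyruvate carboxylase, had 104 in both pools, and Cps1, carbamoyl phosphate synthetase, had 5997 in CR and 6185 in AL, a difference of -0.04. After a shift by the cre spikes Pcx stood at -0.37 and Cps1 at -0.42. Of 9 measured enzymes that use bicarbonate, 1 was at least 2-fold higher in CR, against a background of 1.80% of measured genes, and 0 were at least 2-fold lower, against 2.79%. That 1 was Acacb, the mitochondrial acetyl-CoA carboxylase, at 1.06 (0.56 on its other probe set), and it was below 2-fold after a shift by the cre spikes, at 0.69, and with 16 added to each intensity, at 0.90. The 9 had a median of -0.28, or -0.66 after a shift by the cre spikes. Of 10 measured genes of the urea cycle and of ammonia and glutamine handling, 0 passed 2-fold in either direction, and the median was 0.24, or -0.13 after a shift by the cre spikes. They ran from the glutamate dehydrogenase gene Glud1 at -0.97 (other probe set -0.26) to the argininosuccinate lyase gene Asl at 0.78. After a shift by the cre spikes 1 of the 10, Glud1 at -1.35, was at least 2-fold lower, beside 8.15% of all measured genes.

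Car14, a membrane-spanning isozyme of hepatocytes and kidney, had the highest positive difference of the 7 genes. It had 73.1 in CR and 36.0 in AL on its single probe set, a difference of 1.02, or 2.03-fold higher. That lies just past 2-fold, and the next value below it among the 7 genes was 0.58, on a Car8 probe set. Among 5774 probe sets of like signal the central 95% ran from -1.18 to 1.06, and 3.00% were at least 2-fold higher. The difference fell below 2-fold with 16 added to each intensity, at 0.78, and after a shift by the cre spikes, at 0.65, and was 0.01 after a shift by all hybridisation spikes. Its probe set is of a type whose probes may match more than 1 transcript.

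RefSeq promoter sequences in build GRCm38.p6, from 250 bases before to 50 after the start of transcription, were matched for 3 of the 7 genes, Car14, Car5a and Car4. Those of Car14 and Car5a are shown, the first because its gene passed 2-fold and the second as the promoter of a liver isozyme that did not. Each is given 5′ to 3′ on the strand of its gene, and capitals mark a match to TGTTCT on either strand.
Car14, chr3:95904636-95904935, minus strand: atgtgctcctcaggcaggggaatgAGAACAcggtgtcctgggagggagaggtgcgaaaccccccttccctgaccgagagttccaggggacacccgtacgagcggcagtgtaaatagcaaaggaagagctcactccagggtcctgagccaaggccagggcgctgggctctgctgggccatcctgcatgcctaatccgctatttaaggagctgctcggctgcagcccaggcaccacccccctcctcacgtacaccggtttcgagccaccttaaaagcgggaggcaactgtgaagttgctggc
Car5a, chr8:121944863-121945162, minus strand: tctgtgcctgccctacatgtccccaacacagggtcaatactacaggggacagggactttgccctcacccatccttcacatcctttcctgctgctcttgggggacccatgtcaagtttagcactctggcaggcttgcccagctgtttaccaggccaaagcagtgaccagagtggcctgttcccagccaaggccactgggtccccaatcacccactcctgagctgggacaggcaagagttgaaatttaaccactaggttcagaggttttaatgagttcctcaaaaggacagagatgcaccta
The Car14 window holds 1 match to TGTTCT, which starts 226 bases before the start of transcription, and those of Car5a and Car4 hold 0. TGTTCT is only a part of a glucocorticoid response element and not the whole element. Of all 32851 promoter windows of this length, 19.0% hold this motif. A STAT5-type motif, TTCNNNGAA, and the DR1 element bound by PPAR dimers, AGGTCA repeated after 1 base of any kind, were searched on both strands and found in 0 of the 3 windows, beside 8.30% and 0.0396% of all windows. The motifs searched do not overlap one another in these windows. A match is a description of letters and not a binding site.

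Car4, an isozyme anchored to the outside of the cell membrane and known from capillary endothelium, was at the edge of measurement. Its brighter probe set, 1418094_s_at, had 9.10 in CR and 8.12 in AL, a difference of 0.17 that turned to -0.21 after a shift by the cre spikes. The other, 1448949_at, had 4.26 in CR and 4.48 in AL, both below the limit. Transporters that carry bicarbonate, protons or water across membranes beside these enzymes were measured for 14 of 23 annotated genes. Of them 0 rose by 2-fold or more and 1 was at least 2-fold lower in CR, beside 1.80% and 2.79% of all measured genes, with a median of -0.02. The 1 lower gene was Aqp8, a water channel of hepatocytes, with 10.9 in CR and 31.1 in AL, a difference of -1.51 that was -0.81 with 16 added to each intensity. The anion exchanger gene Slc4a2 stood at 0.90 and the sodium bicarbonate cotransporter gene Slc4a4 at 0.76, whose other probe sets reached down to -0.42.

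Car8, the member without enzymatic activity, binds the inositol trisphosphate receptor and is best known from Purkinje cells of the cerebellum. Its 3 probe sets were all measured and ran from -0.25 to 0.58, a range of 0.83. The brightest, 1427482_a_at, had 173 in CR and 206 in AL, a difference of -0.25. Probe set 1457904_at had 31.4 in CR and 32.9 in AL, a difference of -0.07, and 1424958_at had 13.8 in CR and 9.26 in AL, a difference of 0.58. The probe sets thus lay in both directions, and each was inside the central 95% of probe sets of like signal. Their range is near the median of 0.70 over the genes with 3 or more measured probe sets.

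The other 9 carbonic anhydrase genes on the array, Car5b, Car6, Car7, Car9, Car10, Car11, Car12, Car13 and Car15, had low signals. Of their 17 probe sets 4 were measured, and the highest intensity among them was 31.3, for Car7 in AL against 23.7 in CR. The measured differences ran from -0.40 for Car7 to 0.11 for Car10. Of the 4 genes 0 were at least 2-fold higher and 0 at least 2-fold lower, beside backgrounds of 1.80% and 2.79%.

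Cell types known to carry these isozymes were read from marker lists. Adipocyte markers were measured for 6 of 8 annotated genes with 0 past 2-fold and a median of 0.15, and their summed intensity was 148 in CR and 133 in AL. The adipokine gene Adipoq was below the limit, with 3.66 in CR and 3.78 in AL, and the fatty acid carrier Fabp4 had 46.5 in CR and 45.6 in AL. Skeletal muscle markers were measured for 5 of 13, with 0 past 2-fold, a median of 0.29 and a sum of 65.9 in CR and 55.5 in AL, and the muscle actin gene Acta1 was below the limit. The background of at least 2-fold lower genes was 2.79%, and the part of these tissues in the Car3 values was not tested. A shift by the cre spikes lowers each of these medians by 0.37, which puts both below 0.

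Erythroid markers, beside Car1 and Car2, were measured for 6 of 10 annotated genes, with 0 at least 2-fold higher and 1 at least 2-fold lower, beside 1.80% and 2.79% of all measured genes. Their median was 0.10, or -0.28 after a shift by the cre spikes, and their sum was 146 in CR and 157 in AL. The lower one, the erythroid haem synthesis gene Alas2, had 7.43 in CR, close to the limit of 7.38, and 40.2 in AL. Its difference was -2.43, or -1.26 with 16 added to each intensity. The beta globin gene Hbb-b2 stood at 0.62. Most globin probe sets carry several symbols and were not used. Endothelial markers, beside Car4, were measured for 10 of 12, with 0 past 2-fold, a median of -0.24 and a sum of 590 in CR and 645 in AL. Cholangiocyte markers, beside Car2, were measured for 5 of 7, with 0 past 2-fold and a sum of 74.4 in CR and 69.8 in AL. The cholangiocyte median was 0.29, or -0.08 after a shift by the cre spikes. Markers of stomach, kidney and gut, which also carry isozymes, were measured for 4 of 7, with 0 past 2-fold, a median of -0.11 and a sum of 431 in CR and 541 in AL. Most of that sum came from 1 gene, Fabp2, with 362 in CR and 478 in AL. The part of these cells in the values of Car1, Car2, Car4 and Car14 was not tested.

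The tissue label was met by its markers. Hepatocyte markers were measured for all 11 annotated genes, with a summed intensity of 69503 in CR and 81924 in AL. Albumin, Alb, stood at -0.11 and transthyretin, Ttr, at -0.07 (lowest probe set -1.60), while 2 of the 11 were at least 2-fold lower, beside 2.79% of all measured genes, the fibrinogen gene Fgb at -1.63 and the tryptophan oxygenase gene Tdo2 at -1.23 (highest probe set 0.00). Their median was -0.37. Genes of the hepatocytes around the central vein, 15 measured, had 0 past 2-fold and a median of -0.15, with 9 below 0 and 6 above. They ran from Rgn, the regucalcin gene, at -0.88 to the glutamate transporter gene Slc1a2 at 0.85 (lowest probe set -0.36). The vitamin C synthesis gene Gulo stood at -0.71, the amino acid transporter gene Slc1a4 at -0.71 (other probe set 0.46) and the P450 gene Cyp1a2 at -0.50, beside Cyp2e1 at -0.08 and Glul, glutamine synthetase, at 0.48 (other probe set 0.03). After a shift by the cre spikes 3 of the 15, Rgn, Gulo and Slc1a4, were at least 2-fold lower, beside 8.15% of all measured genes. Genes of the hepatocytes around the portal tract, 8 measured, had 2 at least 2-fold lower, beside the same 2.79%, the P450 gene Cyp2f2 at -1.77 and the cadherin gene Cdh1 at -1.31, and a median of -0.18. These lists give no account of where in the lobule Car3 was lower.

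**Figure D4:**
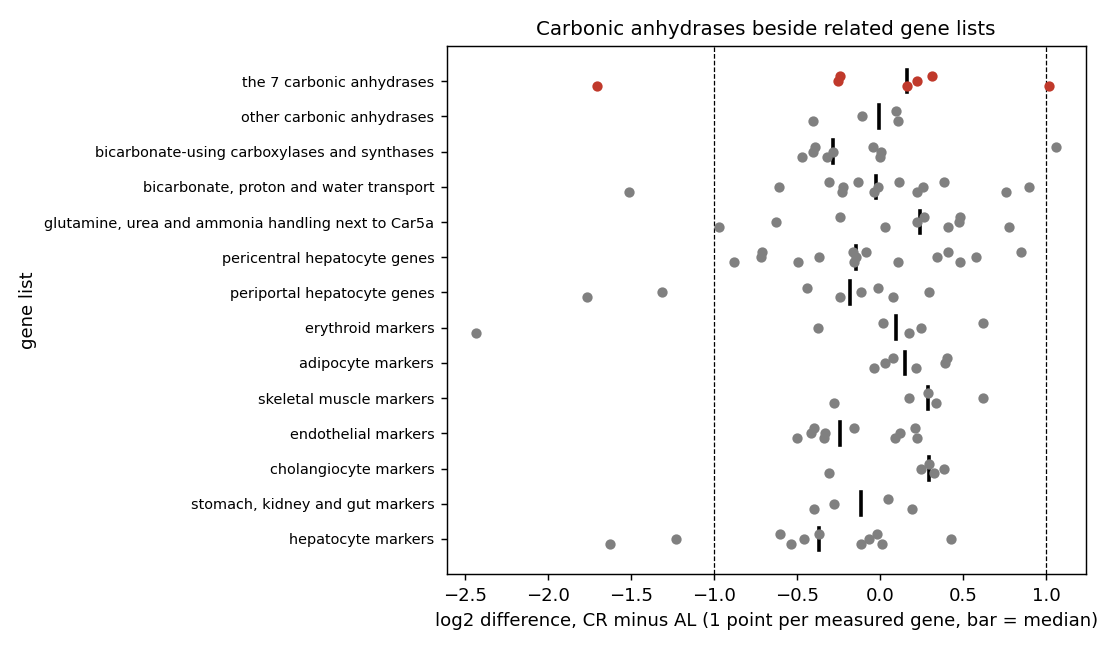
Log2 difference, CR minus AL, of each measured gene (brightest probe set) for the 7 carbonic anhydrases in red and the related lists and cell markers in grey, with a bar at each median and dashed lines at a 2-fold difference. Of the 7 carbonic anhydrases, Car3 at -1.70 and Car14 at 1.02 (0.65 after a shift by the cre spikes) stand outside the lines, and the list medians lie between -0.37 and 0.29.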

How the data were processed

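Intensity values were deposited by the authors as 1 column per pool. Per the submitters' processing notes they were made with RMA, a method that removes background, brings arrays to a common distribution and gives 1 value per probe set. The values are on a linear scale, with medians of 7.42 in CR and 7.35 in AL, and no source used here gives later scaling. Per the labels' protocols, biotinylated cRNA was made from 6 ug of pooled total RNA. Intensities were turned into log2, with CR minus AL as the difference and at least 2-fold as a rule of size. Of 45101 probe sets, 34945 had 1 gene symbol in the annotation, 932 several and 9160 none, besides 64 controls. For each gene the probe set with the highest mean log2 intensity was used, wherever genes are counted. The text names every probe set of the 7 genes, list members past 2-fold with a few of the brightest or defining ones, and the 5 genes nearest to Car3. Some others, such as Adipoq and Glud1, were picked after their values were seen. Members and lists were chosen with earlier results of these data known. Protein sequences and promoters of Car1, Car2, Car3 and Car8 were not used here. Alternatives were other scalings, a loess trend (fraction 0.4), an offset of 16, other intensity limits, a 1.5-fold rule, the mean over probe sets and probe set types. For the gene lists, the cre shift and the offset were chosen after seeing the data. The steps were tested on simulated data. Scripts ran on Python 3.11.15 with pandas 2.3.3, numpy 2.4.6 and statsmodels 0.14.6, and figures were drawn with matplotlib 3.10.9.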

Additional observations from a re-analysis of the deposited data

How the results depend on the processing

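The count of 2 Car3 probe sets at least 2-fold lower was unchanged under 8 of 9 alternatives and became 5 carbonic anhydrase probe sets after a shift by all hybridisation controls, which lowers every difference by 1.02. The 1 probe set at least 2-fold higher, of Car14, became 0 with 16 added to the intensities, after either control shift, and without the probe set types whose probes may match more than 1 transcript, to which it belongs. Car14 was 0.65 after the cre shift and 0.0058 after the shift by all controls. The bright Car3 probe sets stood at -2.08 and -3.41 after the cre shift and at -2.72 and -4.06 after the shift by all controls, and 1460256_at at -2.46 with 16 added. The Car3 range was 1.34 at the 75th percentile limit and without the shared types, both of which drop the dim 1430584_s_at, and 2.53 with 16 added. The median of the 7 genes was -0.21 after the cre shift and -0.85 after that by all controls. The cause of the differences between the spikes was not tested. For the other 8 measured probe sets, 28 of 45 values stayed within the median SD between probe sets of a gene, 0.288, and 16 of the 17 that moved further did so under the 2 control shifts. These counts are largely set by the alternatives themselves. The 2 control shifts lower every difference by 0.37 or 1.02, both more than 0.288, and leaving out probe set types does not change a value that is kept. No paired analysis was possible because each diet had 1 array, so no replicate could be left out either.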
